A study of Mus musculus with 37 samples.

Results

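The second step of culture toward osteoclasts was followed in macrophages labelled as Arid1a knockout, as the change from day 2 to day 4. The 2 knockout (KO) RNA-seq libraries of day 4 were set against the 2 KO libraries of day 2, which are 4 of the 37 samples of the series and 4 of its 12 RNA-seq libraries. All cells were bone-marrow-derived macrophages from mouse, and the labels give the genotype as Arid1a Knock out and the treatment as osteoclastic differentiation. The allele, any Cre driver, the cytokines of the culture and the number of animals are not given in the sources used here. Wild-type (WT) libraries of the same 2 days, 2 each and with the same treatment label, served for comparison. Nothing in the labels says that the 2 replicates of a group came from separate cultures or animals, so the p-values may measure technical spread alone. The chromatin libraries of the series were not used here.

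Osteoclasts are multinucleated cells that dissolve bone. They form when macrophage precursors receive the cytokines M-CSF and RANKL, pass through a burst of AP-1 and other early-response transcription factors, switch on the regulator NFATc1, and then fuse and make the acid pump and proteases of resorption. As they mature they give up macrophage functions such as antigen presentation and phagocytic sensing, and they build many mitochondria. The protein made from Arid1a binds DNA within BAF, a remodelling complex that moves nucleosomes and opens enhancers.

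Library totals in the 4 KO libraries ran from 16282164 to 17730417 counts, close to those of the other 8, and RNAs of the mitochondrial genome made up 1.55 to 1.90% of the counts in these 4. Of 23170 listed genes, 12774 passed the filter on low counts. Levels are given in CPM, counts relative to a library total scaled by the TMM method, in the order replicate 1 and replicate 2. A log2 fold change is given ± SE. This SE was worked back from the test statistic, and it can understate the error of a gene with few counts in a group. A gene was called when the p of edgeR's quasi-likelihood test, adjusted by Benjamini-Hochberg over all 12774 genes, lay under 0.05. "Rose" and "fell" are used of called genes only. Arid1a itself held 118 and 117 CPM at day 2 and 84.7 and 98.0 CPM at day 4 in KO, against 169 and 175 CPM and 164 and 135 CPM in WT. Each KO library lay below the WT libraries of its day, and the KO change was not called (-0.37 ± 0.14, adjusted p = 0.0622). It was called in 3 of 14 alternatives, one of them without day 4 replicate 2 (0.0456), in a range of 0.035 to 0.252. A gene-level count says nothing of a single missing exon. Csf1r and other defining genes of macrophages were present at both days, as given with their group.

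Between day 2 and day 4 early-response, MHC class II and many macrophage genes fell in the KO cells, and genes of DNA replication, nuclear genes for mitochondria, genes of ribosome assembly and part of the osteoclast set rose. The step called 5459 genes, 42.7% of those tested: 2829 rose (22.1%) and 2630 fell (20.6%). At a change of at least 2-fold there were 2824 calls, 1367 up and 1457 down. Both day 4 libraries lay above both day 2 libraries for 4449 genes (34.8%) and below them for 4672 (36.6%). On the TPM scale, where the median of all genes was 0.13 higher in log2, the split was 3380 higher and 2060 lower. The median log2 fold change of all tested genes was -0.04, which is the value each list median below stands beside.

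**Figure D1:**
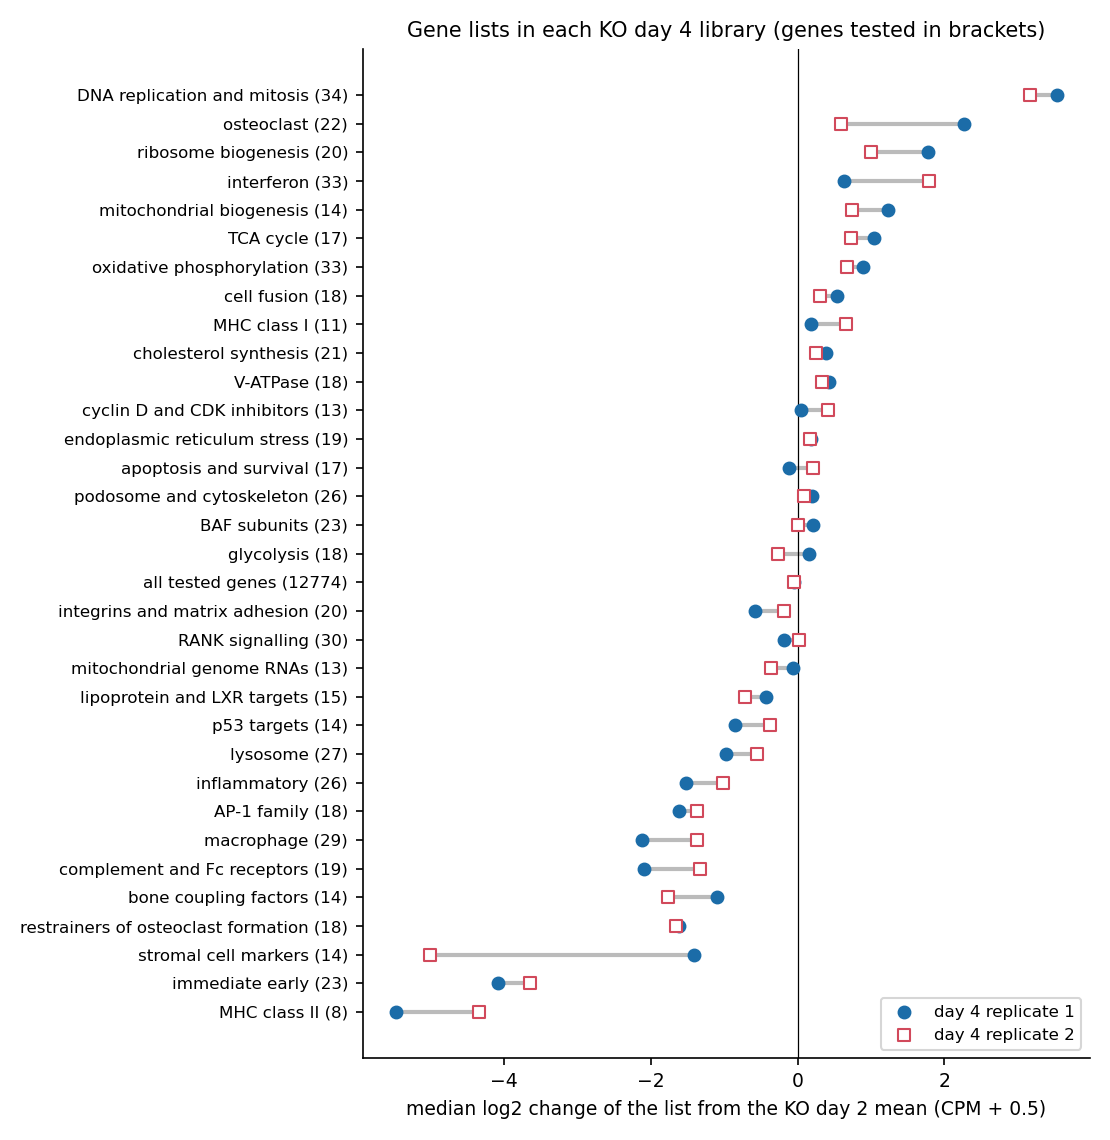
Median log2 change of each gene list from the KO day 2 mean (x axis, log2 of CPM + 0.5), drawn separately for day 4 replicate 1 (filled circles) and replicate 2 (open squares), with the genes tested in brackets. DNA replication (median 3.53 and 3.17) and immediate-early genes (-4.09 and -3.64) sat close together in both libraries, while osteoclast genes (2.28 and 0.60), interferon genes (0.64 and 1.79) and stromal markers (-1.41 and -5.01) did not.

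Immediate-early genes, the transcription factors and feedback inhibitors that cells switch on within minutes of a stimulus, fell to low levels in both day 4 libraries. Fosb, an AP-1 subunit, held 259.7 and 302 CPM at day 2 and 0.256 and 0.111 CPM at day 4. Nr4a1, an orphan nuclear receptor of the early response, went from 877 and 986 CPM to 1.69 and 1.72 CPM. Both genes were high in both day 2 libraries and near 0 in both day 4 libraries, with no overlap. At day 0 the same KO cells had held 0.475 and 0.451 CPM of Fosb and 17.0 and 14.7 CPM of Nr4a1. The changes were -10.50 ± 0.34 for Fosb (adjusted p = 2.62e-06) and -9.09 ± 0.45 for Nr4a1 (adjusted p = 1.33e-05). Fosb had very few counts at day 4, so its SE understates the error of the change. Egr1, a zinc-finger early-response factor, fell by 7.90 ± 0.50, the stress-induced survival gene Ier3 fell by 4.63 ± 0.16, and Dusp1, a phosphatase that switches off MAP kinases, fell by 4.43 ± 0.27. Of 23 immediate-early genes tested, 18 fell and 2 rose, with a median log2 fold change of -3.96. The count of falls was 17 or 18 with any 1 of the 4 libraries left out.

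The AP-1 family fell with them, in 13 of 18 genes with 1 rise (median -1.76, and 9 to 12 falls with 1 library left out). Jun went from 325 and 343 CPM to 85.3 and 48.4 CPM (-2.32 ± 0.30, adjusted p = 0.000587), and Junb from 1143 and 1311 CPM to 281 and 349 CPM (-1.96 ± 0.16). Fos, the partner of Jun in AP-1, held 919 and 1142 CPM at day 2 and still 276 and 222 CPM at day 4 (-2.05 ± 0.50, adjusted p = 0.0121). That call did not hold without day 4 replicate 2 (adjusted p = 0.0645) or day 2 replicate 2 (0.0512), in a range of 4.91e-05 to 0.0645 over 14 alternatives. Fosl2, an AP-1 subunit with a role in bone cells, separated the 2 day 4 libraries. It stood at 1079 and 1454 CPM at day 2 and at 320.4 and 63.1 CPM at day 4, so that both day 4 libraries were lower and replicate 2 was the lowest (-2.72 ± 0.64, adjusted p = 0.0101). In WT the same gene held 885 and 632 CPM and 784 and 895 CPM, and the difference between the steps of the genotypes was not called (adjusted p = 0.125).

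Genes that restrain osteoclast formation mostly fell, with 13 of 18 falling and 3 rising (median -2.05). With any 1 library left out 11 fell, and 1 or 2 rose. Id2, an inhibitor of helix-loop-helix factors, went from 434 and 383 CPM to 36.4 and 35.6 CPM (-3.51 ± 0.14, adjusted p = 3.29e-06). Its 2 day 4 libraries differed little and lay far below both day 2 libraries. Among the 3 rises was Nr1h3, which encodes the sterol sensor LXR alpha, at 12.3 and 17.9 CPM and then 30.3 and 151 CPM (2.59 ± 0.70, adjusted p = 0.0192). Its rise was mainly that of replicate 2, and the call was lost without that library (0.123), day 2 replicate 1 (0.106) or day 2 replicate 2 (0.0645), in a range of 0.000335 to 0.123 over 14 alternatives.

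Of 29 macrophage genes 17 fell and 1 rose (median -1.79, 15 to 18 falls with 1 library left out). Csf1r, the receptor for M-CSF, held 5084 and 5861 CPM at day 2 and 985 and 875 CPM at day 4 (-2.56 ± 0.14, adjusted p = 1.76e-05), and Cebpb, a myeloid transcription factor, 314 and 386 CPM and 26.9 and 29.96 CPM (-3.62 ± 0.26). The day 4 libraries of both genes agreed within the spread seen at day 2 and did not overlap with it. Apoe, the macrophage apolipoprotein, stood at 16135 and 15939.7 CPM and then at 1247 and 419 CPM, lowest in replicate 2 (-4.27 ± 0.71, adjusted p = 0.00221). In bulk RNA a smaller number of cells of a type and less RNA per cell cannot be told apart.

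All 8 tested genes of MHC class II, which present antigen to helper T cells, fell (median -5.04, and 8 falls with any 1 library left out). Ciita, the master activator of these genes, held 36.5 and 54.0 CPM and then 0.256 and 1.28 CPM (-5.89 ± 0.89, adjusted p = 0.00149), and the alpha chain gene H2-Aa 435 and 609 CPM and then 4.81 and 15.3 CPM (-5.70 ± 1.22, adjusted p = 0.00662). H2-DMb1, part of the chaperone that loads peptides, fell less, from 65.7 and 88.2 CPM to 19.4 and 30.3 CPM (-1.63 ± 0.29). Replicate 2 was the higher of the 2 day 4 libraries in 7 of the 8 genes, and still below both day 2 libraries. Reads of near-identical H2 genes may be shared between them by the counting, so single H2 values are uncertain. Of 19 complement and Fc receptor genes 12 fell and 1 rose (median -1.88), and of 26 inflammatory genes 15 fell and 1 rose (median -1.11). Il1b, the precursor of interleukin 1 beta, went from 919.9 and 1862 CPM to 3.99 and 7.601 CPM (-7.91 ± 0.78, adjusted p = 0.000233), and Fcgr3, a low-affinity receptor for IgG, from 1119.9 and 1465 CPM to 96.7 and 162 CPM (-3.32 ± 0.26). The 1 inflammatory gene that rose was Nos2, the inducible nitric oxide synthase, at 0.813 and 3.96 CPM and then 8.86 and 52.8 CPM. It was high in replicate 2 (3.69 ± 0.98, adjusted p = 0.0197) and not called without it (adjusted p = 0.118) or without day 2 replicate 1 (0.0848), in a range of 0.000402 to 0.118 over 14 alternatives.

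Proliferation genes moved the other way, and the day 4 libraries agreed on them. Of 34 genes of DNA replication and mitosis 33 rose and 0 fell, with a median log2 fold change of 3.37, and 31 to 33 rose with 1 library left out. Mcm6, a subunit of the replicative helicase, held 53.8 and 41.3 CPM at day 2 and 499 and 312 CPM at day 4 (3.09 ± 0.28, adjusted p = 0.000134), and Mcm2 of the same complex 17.6 and 11.4 CPM and then 161 and 117 CPM (3.26 ± 0.29). Rrm2, which makes deoxynucleotides, went from 14.4 and 4.16 CPM to 151 and 89.7 CPM (3.68 ± 0.83, adjusted p = 0.00861, and 0.0503 without day 2 replicate 2 in a range of 8.54e-07 to 0.0503). No gene of the list was over 2-fold apart between the day 4 libraries, though replicate 1 was the higher in 33 of 34. Ccnd1, the cyclin that carries growth signals into G1, stood at 158 and 75.4 CPM and then at 1006 and 1797 CPM (3.59 ± 0.59, adjusted p = 0.00216). In WT it held 107 and 139 CPM and 198 and 152 CPM, a change that was not called (adjusted p = 0.445), and the difference between the 2 steps was not called (adjusted p = 0.0764). Cdkn1b, the inhibitor p27 of cyclin-dependent kinases, fell from 66.0 and 92.9 CPM to 42.3 and 38.5 CPM in KO (-0.97 ± 0.17, adjusted p = 0.00204).

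The promoters of the replication genes were read for the E2F-type motif TTTNNCGC, since E2F factors drive S-phase genes. Promoter sequences were those of RefSeq on GRCm38.p6, from 250 bases before to 50 after the start of a gene, searched on both strands. The motif was in 9 of the 29 replication promoters that the table holds (31.0%), against 5.27% of 27025 promoters of the table and 8.44% of those of 10150 tested genes. A match is a description of letters and not a site of binding. Mcm2, Mcm3 and Rrm2 of the same list had no match before the start, while Mcm6 did. A 60-base stretch of the Mcm6 promoter is shown, at chr1:128359718-128359777 on the minus strand, with the motif in capitals.
Mcm6: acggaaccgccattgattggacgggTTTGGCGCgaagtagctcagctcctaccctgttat

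Nuclear genes for mitochondria and genes of ribosome building rose, more in replicate 1. Of 33 nuclear genes for oxidative phosphorylation 30 rose and 0 fell (median 0.80, 23 to 32 rises with 1 library left out). Of 17 genes of the tricarboxylic acid cycle 14 rose and 0 fell (median 0.88), and of 14 genes of mitochondrial biogenesis and import 9 rose and 0 fell (median 1.06). Sdhc, a membrane anchor of complex II, held 79.1 and 87.5 CPM and then 155 and 155 CPM (0.89 ± 0.09, adjusted p = 0.000191), with both day 4 libraries alike. Idh3a, a subunit of isocitrate dehydrogenase, held 41.1 and 38.3 CPM and then 221 and 103 CPM, above day 2 in both libraries and over 2-fold higher in replicate 1 than in replicate 2 (2.03 ± 0.31, adjusted p = 0.00143). Tfam, which packages and transcribes mitochondrial DNA, rose from 20.6 and 20.6 CPM to 48.5 and 40.6 CPM (1.11 ± 0.13), and the chaperonin gene Hspd1 from 149 and 113 CPM to 753 and 375 CPM (2.11 ± 0.34). Of the 13 RNAs of the mitochondrial genome itself 0 were called with edgeR (0 at an unadjusted p under 0.05), and 0 with DESeq2 or limma-voom. Their median was -0.21, both day 4 libraries lay below both day 2 libraries for 7, and 4 fell without day 4 replicate 1. Ribosome biogenesis genes rose in 19 of 20 cases with 0 falls (median 1.45, 17 to 20 rises with 1 library left out). Dkc1, which modifies ribosomal RNA, went from 13.5 and 10.6 CPM to 109 and 51.6 CPM (2.74 ± 0.32, adjusted p = 0.000395), and Polr1a, the large subunit of RNA polymerase I, from 38.9 and 40.8 CPM to 133 and 81.6 CPM (1.43 ± 0.21). Replicate 1 was the higher day 4 library in all 20 of these genes.

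Osteoclast genes rose in the step, but by very different amounts in the 2 day 4 libraries. Of 22 tested genes 16 rose and 0 fell (median 2.21), and 13 of the 22 were over 2-fold higher in replicate 1 than in replicate 2, against 7.84% of all tested genes. The median change from the day 2 mean was 2.28 in replicate 1 and 0.60 in replicate 2. The number of rises was 11, with 1 fall, without day 4 replicate 1, and 18 without day 4 replicate 2. It was 9 without day 2 replicate 1 and 7 without day 2 replicate 2.

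Summed over the 22 tested osteoclast genes, KO held 1771 and 1748 CPM at day 2 and 8157 and 3966 CPM at day 4, against 4780 and 5063 CPM and then 20928 and 26272 CPM in WT. Some osteoclast genes were raised alike in both day 4 libraries. Mmp9, a gelatinase of invading osteoclasts, held 32.5 and 14.4 CPM at day 2 and 1053 and 1054 CPM at day 4 (5.49 ± 0.62, adjusted p = 0.000396). Tnfrsf11a, the receptor RANK, held 65.7 and 69.1 CPM and then 224 and 211 CPM (1.69 ± 0.13, adjusted p = 6.35e-05). Jdp2, an AP-1 partner required for osteoclast formation in mice, held 31.1 and 17.6 CPM and then 555 and 348 CPM (4.21 ± 0.38, adjusted p = 0.000141), and the kinase gene Src 37.0 and 21.3 CPM and then 168 and 90.7 CPM (2.15 ± 0.38). In these 4 genes each day 4 library was above each day 2 library and the day 4 libraries were under 2-fold apart.

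Resorption and fusion genes were high in day 4 replicate 1 and much less so in replicate 2. Ctsk, the main collagen-cutting protease of osteoclasts, held 22.5 and 8.32 CPM at day 2 and 1503 and 94.4 CPM at day 4, which is 15.9 times as much in replicate 1 as in replicate 2 with 0.5 CPM added to both (5.69 ± 1.203, adjusted p = 0.00636). Acp5, the acid phosphatase TRAP, held 50.1 and 54.2 CPM and then 1135 and 298 CPM (3.78 ± 0.71, adjusted p = 0.0038). Dcstamp and Ocstamp, membrane proteins needed for fusion, went from 4.88 and 1.501 CPM to 133 and 14.7 CPM and from 1.19 and 0.819 CPM to 65.3 and 19.3 CPM (4.52 ± 1.04 and 5.38 ± 0.67). The call of Dcstamp was lost without day 2 replicate 2 (adjusted p = 0.0626, in a range of 0.000312 to 0.142 over 14 alternatives). In all 4 genes the lower day 4 library still lay above both day 2 libraries.

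The rise of 4 further osteoclast genes depended on single libraries. Nfatc1, the master regulator, held 102 and 114 CPM and then 358 and 144 CPM (1.22 ± 0.35, adjusted p = 0.0218), and was not called without day 4 replicate 1 (0.065), day 2 replicate 1 (0.107) or day 2 replicate 2 (0.0731), in a range of 0.000117 to 0.133 over 14 alternatives. Atp6v0d2, a subunit of the proton pump that also acts in fusion, held 35.3 and 35.8 CPM and then 302 and 44.2 CPM. Its replicate 2 was just above day 2, and the call (2.28 ± 0.80, adjusted p = 0.0493) went to an adjusted p of 0.67 without replicate 1, 0.166 without day 2 replicate 1 and 0.155 without day 2 replicate 2, in a range of 0.00319 to 0.67. Oscar, a collagen receptor that costimulates osteoclasts, had 2 counts at day 2 and 255 at day 4, nearly all of them in replicate 1, a ratio of 104 (95% counting interval 28.5 to 864). The call (adjusted p = 0.0337) was lost without day 4 replicate 1 (0.24), day 2 replicate 1 (0.115) or day 2 replicate 2 (0.137), in a range of 0.000815 to 0.265. Siglec15, a receptor of late osteoclast precursors, had 0 counts at day 2 and 5.38 and 0.388 CPM at day 4, at least 30.5-fold higher over a floor of 3 counts for the group (adjusted p = 0.0191, and 0.0712 or 0.0671 without day 2 replicate 1 or 2, in a range of 7.32e-05 to 0.114). These intervals and floors cover counting error only.

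**Figure D2:**
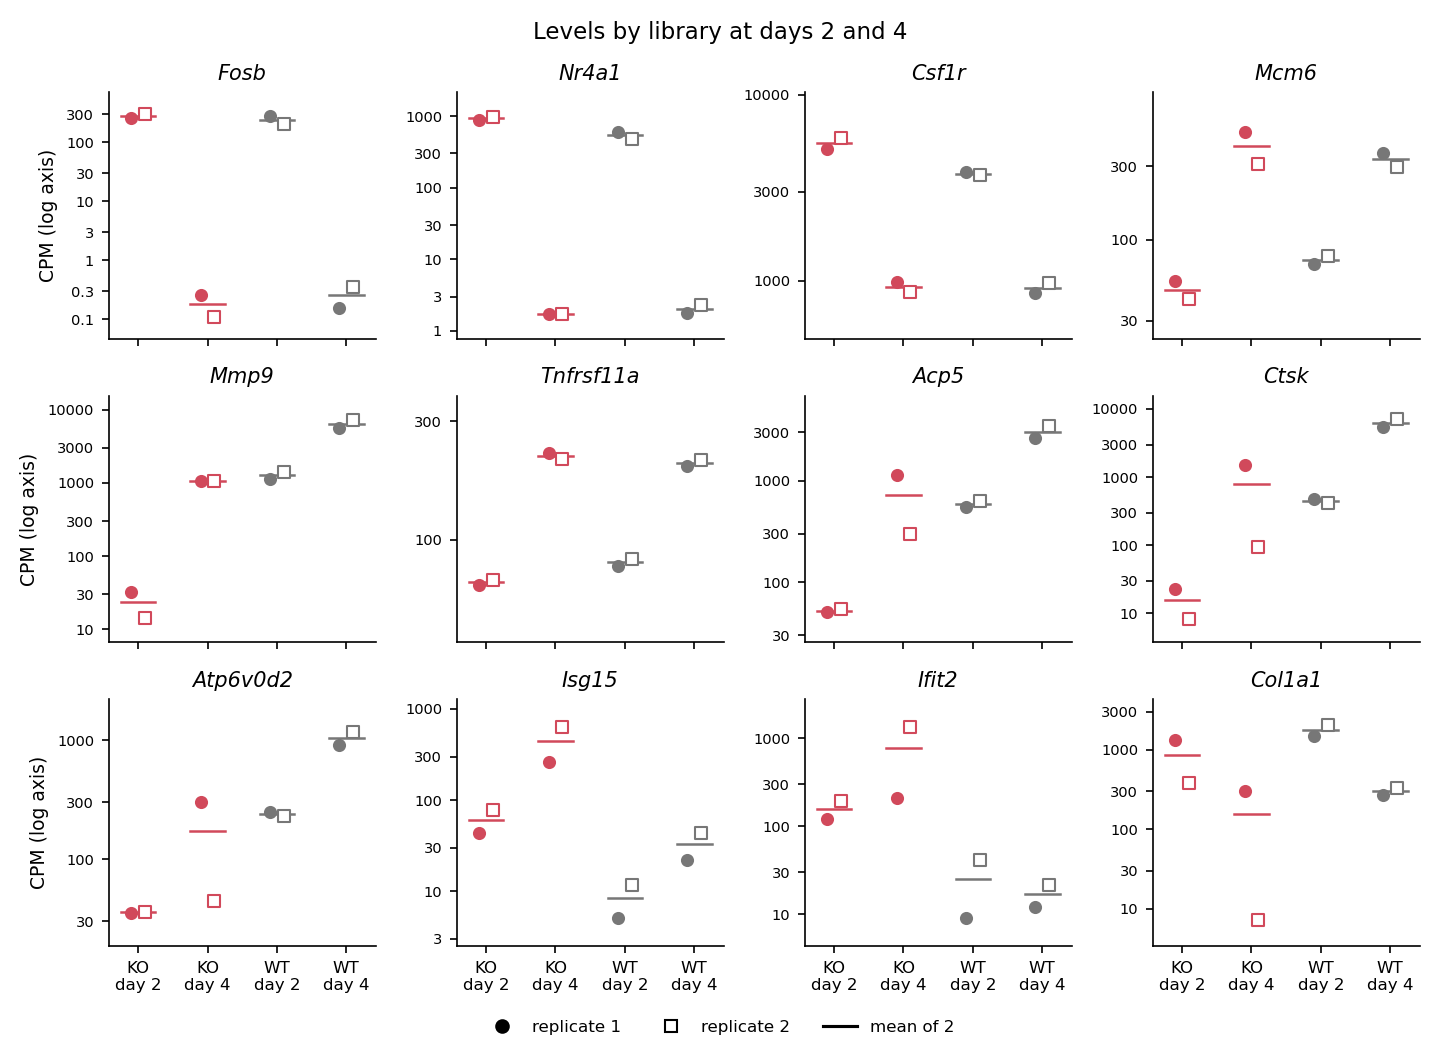
CPM (y axis, log scale) of 12 genes in each library at days 2 and 4, with KO in red, WT in grey, replicate 1 as circles, replicate 2 as squares and the mean of 2 as a line. Fosb, Nr4a1, Csf1r, Mcm6, Mmp9 and Tnfrsf11a lie close together at KO day 4, while Ctsk (1503 and 94.4 CPM), Atp6v0d2 (302 and 44.2 CPM), Ifit2 (209 and 1366 CPM) and Col1a1 (301 and 7.16 CPM) lie far apart.

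Across the genome the KO day 4 pair had more genes over 2-fold apart than the pair of any other of the 6 groups. With 0.5 CPM added, 1576 genes (12.3% of those tested) were over 2-fold apart: 1001 higher in replicate 1 (7.84%) and 575 higher in replicate 2 (4.50%). The same count was 1062 at KO day 2, 608 at KO day 0, 271 at WT day 4, 434 at WT day 2 and 1457 at WT day 0. Of the 1001 genes higher in replicate 1 at day 4, 442 were also over 2-fold higher in replicate 1 at day 2. Of the 575 genes higher in replicate 2, 65 were so at day 2. Among all tested genes at KO day 2, 862 were over 2-fold higher in replicate 1 and 200 in replicate 2. Fewer genes could therefore carry over in favour of replicate 2. Among genes with a mean of at least 5 CPM the 2 directions were level, with 395 higher in replicate 1 and 397 higher in replicate 2. For a difference of any size, replicate 1 was the higher day 4 library in 7214 tested genes and replicate 2 in 5488. That split is the background for counts of the higher library within a list.

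**Figure D3:**
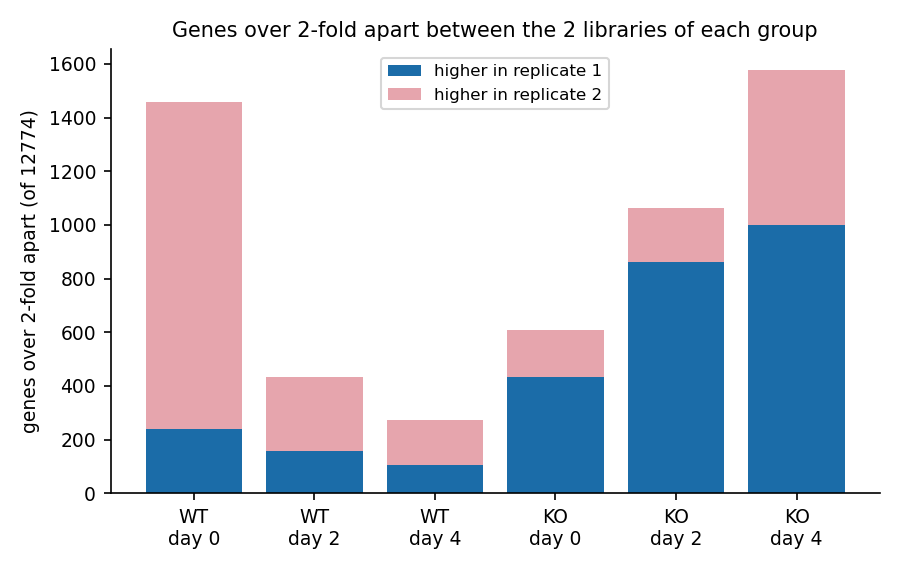
Number of genes over 2-fold apart between the 2 libraries of each group (y axis), split into those higher in replicate 1 (dark) and in replicate 2 (light). KO day 4 has the most genes, 1576, and the 3 KO groups have more genes higher in replicate 1 than in replicate 2.

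Of the 5459 called genes 443 (8.12%) were over 2-fold apart, against 12.3% of all tested genes, and the test itself is less likely to call a gene whose replicates disagree. The day 4 libraries lay on one side of both day 2 libraries in 5457 of the called genes, which a call with 2 libraries a side nearly requires. Over all tested genes they lay above in 34.8% and below in 36.6%. Of the 5459 calls 4036 were also made without day 4 replicate 1, 4679 without replicate 2 and 3609 in both cases, each in the same direction. Replicate 1 was the closer of the 2 to the WT day 4 mean in 1406 of the 1576 genes (89.2%), and in 72.9% of all tested genes.

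**Figure D4:**
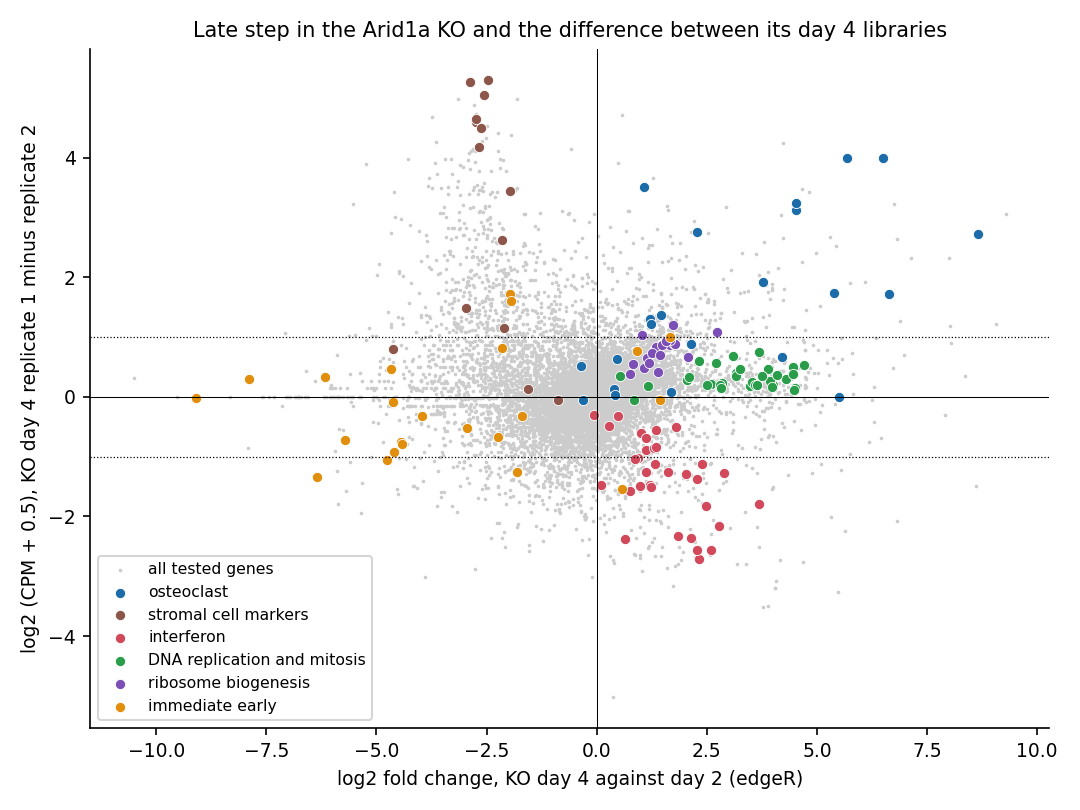
Each point is a tested gene, with its log2 fold change from KO day 2 to day 4 (x axis) and the log2 difference of replicate 1 minus replicate 2 at KO day 4 (y axis, CPM + 0.5), and dotted lines mark 2-fold. DNA replication genes lie to the right between the dotted lines, 13 of 22 osteoclast genes lie above the upper line, 11 of 14 stromal markers lie above it on the left, and 23 of 33 interferon genes lie below the lower line.

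Collagen and matrix genes, which mark stromal cells, were among those with the largest differences in favour of replicate 1. Col1a1, a chain of type I collagen, held 1326 and 377 CPM at day 2 and 301 and 7.16 CPM at day 4, which is 39.3 times as much in replicate 1 with 0.5 CPM added to both. Postn, the matrix protein periostin, held 266 and 80.7 CPM and then 46.4 and 0.721 CPM, and Fn1, fibronectin, 4629.9 and 1236 CPM and then 839.7 and 31.1 CPM. In each of these genes replicate 1 was also the higher library at day 2, and day 4 replicate 1 lay below day 2 replicate 2 by less than 2-fold. None of the 3 was called (adjusted p = 0.228, 0.146 and 0.16). Fn1 is not on the list of stromal markers. On that list, Dcn (0.410 and 0.444 CPM) and Mmp2 (7.22 and 6.55 CPM) were level between the day 4 libraries, Dcn at very low counts. Lum and Lepr had at most 4 counts in any KO library of these days. Of 14 stromal markers tested, 11 were over 2-fold higher in replicate 1 at day 4, and all 14 had both day 4 libraries below both day 2 libraries. The fall of 1, Pdgfra, was called (13.01 and 4.23 CPM and then 1.84 and 0.333 CPM, adjusted p = 0.0248), and it was lost without day 4 replicate 2 (0.0797) or day 2 replicate 1 (0.158), in a range of 0.00215 to 0.158. Without day 4 replicate 1, 9 of the 14 fell. The summed level of the 16 listed stromal markers was 5147 and 1378 CPM at KO day 2 and 1047 and 39.8 CPM at KO day 4, against 5079 and 6275 CPM and then 791 and 973 CPM in WT. Stromal markers stood higher in the same day 4 library that had more osteoclast transcripts, and their part in the osteoclast difference was not tested. The 8 listed osteoblast markers summed to 11.9 and 8.19 CPM and then 6.50 and 7.71 CPM in KO, nearly all of it Runx2, and 3 of them (Bglap, Dmp1 and Sost) had 0 counts in all 4 KO libraries. Thbs1, a secreted adhesion protein, fell from 10286 and 9992 CPM to 508 and 33.6 CPM (-5.23 ± 1.10, adjusted p = 0.00633), with the 2 day 4 libraries 14.9-fold apart on the same scale.

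Interferon-stimulated genes, the antiviral program that type I interferon switches on, differed in favour of replicate 2. Many of their promoters carry the interferon-stimulated response element. This motif, GAAA and again GAAA 2 bases further on, was in 17 of the 25 list promoters found in the RefSeq table (68.0%). It was in 3.49% of all 27025 promoters and 3.24% of those of tested genes. The AP-1 motif TGANTCA was in 8 of the same 25 promoters against 7.93% of all, and in 0 of 14 osteoclast promoters, which says only that these letters are not in this window. Matches of the AP-1 motif overlapped neither of the other motifs, and those of the interferon and E2F-type motifs overlapped in 13 of all promoters. Isg20 and Ifit2 of the list had no match before the start. Stretches of 60 bases (GRCm38.p6) are shown for 4 genes of the list that had one. The response elements are in capitals, which show how the element is repeated and occurs on either strand. They lie at chr5:92349068-92349127 on the minus strand for Cxcl10, at chr4:156200850-156200909 on the minus strand for Isg15, at chr5:120887614-120887673 on the minus strand for Oas1g, and at chr19:34607778-34607837 on the plus strand for Ifit3b.
Cxcl10: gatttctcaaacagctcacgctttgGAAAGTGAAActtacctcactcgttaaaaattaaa
Isg15: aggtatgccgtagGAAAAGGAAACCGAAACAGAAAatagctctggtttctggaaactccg
Oas1g: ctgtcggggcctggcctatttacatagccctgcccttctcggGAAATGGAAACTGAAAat
Ifit3b: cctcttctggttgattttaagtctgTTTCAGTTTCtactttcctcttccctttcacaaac

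All 33 tested interferon genes were higher in replicate 2 than in replicate 1 at KO day 4, and 23 of them by over 2-fold, against 4.50% of all tested genes. Cxcl10, a chemokine for T cells, held 28.1 and 49.4 CPM at day 2 and 222 and 769 CPM at day 4 (3.68 ± 0.74, adjusted p = 0.00517). Isg15, a ubiquitin-like modifier, held 43.4 and 77.0 CPM and then 260.0 and 631 CPM (2.89 ± 0.66, adjusted p = 0.00917, and 0.0643 without day 2 replicate 1 in a range of 4.49e-06 to 0.0643). In both genes the 2 days did not overlap. Ifit2, which binds viral RNA, held 121 and 192 CPM and then 209 and 1366 CPM, so that day 4 replicate 1 lay just above day 2 and replicate 2 far above it. Its change was not called (2.33 ± 0.98, adjusted p = 0.0883), nor was that of its neighbour in function Ifit3b, with 16.4 and 22.9 CPM and then 33.7 and 202 CPM (adjusted p = 0.0775). Oas1g, a sensor of double-stranded RNA, rose from 28.3 and 48.0 CPM to 109.8 and 156 CPM (adjusted p = 0.0136, lost without day 4 replicate 2 at 0.0586 or day 2 replicate 1 at 0.0862, in a range of 0.000273 to 0.0862). Ifit3b and Oas1g have close paralogs whose reads the counting may share, so their values are uncertain.

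In all, 12 of the 33 interferon genes rose and 0 fell (median 1.31). The number of rises was 21 without day 4 replicate 1, 3 without day 4 replicate 2, 1 without day 2 replicate 1 and 6 without day 2 replicate 2. Summed over the list, the level was 4106 and 6450 CPM at day 2 and 7730 and 17831 CPM at day 4, so replicate 2 was also the higher library at day 2. In WT the sums were 930.2 and 1549 CPM at day 2 and 1112 and 1525 CPM at day 4, below every KO library. Replicate 2 was likewise the higher in all 11 tested genes of MHC class I presentation, of which 2 rose (1 to 7 with 1 library left out), 1 of them the immunoproteasome subunit gene Psmb8 at 98.8 and 142 CPM and then 219 and 294 CPM (1.09 ± 0.20, adjusted p = 0.00314). Over all tested genes 22.1% rose, so 2 of 11 MHC class I genes is not an excess. Other genes far higher in replicate 2 were the dendritic-cell chemokine gene Ccl22, with 0.375 and 1.91 CPM and then 3.69 and 34.7 CPM, and the adhesion receptor gene Vcam1, with 43.6 and 41.7 CPM and then 20.0 and 154 CPM. The call of Ccl22 (adjusted p = 0.048) was lost without day 4 replicate 2 (0.299), day 2 replicate 1 (0.182) or day 2 replicate 2 (0.0782), in a range of 0.00527 to 0.299, and Vcam1 was not called (adjusted p = 0.412). Apol7c went opposite ways, with 9.44 and 19.9 CPM at day 2 and 0.666 and 37.3 CPM at day 4. The 12 listed markers of dendritic cells, 2 of them at 0 in all 4 KO libraries, summed to 62.2 and 21.5 CPM at day 2 and 11.9 and 45.5 CPM at day 4, and 34.7 CPM of the last sum was Ccl22 itself. At day 4, 4 of the 7 tested markers were higher in replicate 1 and 3 in replicate 2, and their part in these differences was not tested. The 9 listed markers of T and NK cells summed to between 2.00 and 23.6 CPM in the 4 KO libraries, lowest in day 4 replicate 1. Most of each sum was Cd4 (1.38 and 9.99 CPM at day 4), and their part was not tested. Cd3d, Cd3e and Cd3g had at most 1 count in any KO library of these days.

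For 18 genes the fits with 1 day 4 library each gave called changes in opposite directions, 11 of them upward with replicate 1 and downward with replicate 2, and 7 the reverse. In such a fit the lone library is assumed to vary like the other groups, and these genes were picked because their day 4 libraries disagree, so the calls describe the disagreement only. Itgb3, the beta 3 chain of the integrin that holds osteoclasts to bone, stood at 10.9 and 5.73 CPM at day 2 and at 32.5 and 2.39 CPM at day 4. With replicate 1 alone its log2 fold change was 1.96 (adjusted p = 0.00375), and with replicate 2 alone -1.81 (adjusted p = 0.0187), while the 2 together gave 1.07 ± 0.89 (adjusted p = 0.359) in a range of 0.00375 to 0.888 over 14 alternatives. The next 4 genes were chosen from the 18 after their values were seen. Xpr1, a phosphate exporter, held 207 and 221 CPM and then 349 and 140.0 CPM, and Slc20a1, a phosphate importer, 335 and 318 CPM and then 230.3 and 531 CPM. The exporter was above day 2 in replicate 1 and below it in replicate 2, and the importer the other way round. Icam1, a leukocyte adhesion receptor, held 199.7 and 261 CPM and then 155 and 459 CPM, and the cytokine gene Il15 20.8 and 24.7 CPM and then 12.3 and 37.9 CPM, both below day 2 in replicate 1 and above it in replicate 2.

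The KO step was then set beside the same step in WT, which shares no library with it. The WT step called 6619 genes (51.8%), of which 3497 rose (27.4%) and 3122 fell (24.4%). These calls and the shares below rest on a spread shared by all 12 libraries. With the libraries of each step fitted alone, 2403 genes were called in KO and 8013 in WT. Of the KO rises 2327 were also WT rises, 82.3% of the KO list and 66.5% of the WT list. Of the KO falls 1963 were also WT falls, 74.6% of the KO list and 62.9% of the WT list. Only 11 genes rose in KO and fell in WT, and 27 fell in KO and rose in WT. On the line from the WT day 2 mean (0) to the WT day 4 mean (1), drawn through all tested genes in log2(CPM + 0.5), the KO day 2 libraries lay at -0.085 and -0.027 and the KO day 4 libraries at 0.712 and 0.646. By gene list the day 4 libraries reached 1.11 and 0.98 for DNA replication and 0.88 and 0.79 for immediate-early genes, but 0.45 and 0.36 for macrophage genes. For osteoclast genes they reached 0.44 and -0.36, from -0.86 and -1.04 in the KO day 2 libraries.

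The difference between the 2 steps was called for 395 genes (3.09%), 267 with a higher KO step (2.09%) and 128 with a lower one (1.0%). Of the 267, 238 fell in WT. Of these 154 also fell in KO, 75 were not called in KO and 9 rose in KO. In the 128, 76 rose in WT, and of those 41 were not called in KO, 25 fell and 10 rose. Replicate 2 was over 2-fold the higher day 4 library in all 52 of the 267 genes that were over 2-fold apart. The calls depended on single libraries. Leaving out WT day 4 replicate 2 left 0 calls (1681 genes at an unadjusted p under 0.05, against 2464 with all libraries), and the count was 8, 34 and 110 without WT day 2 replicate 1, WT day 2 replicate 2 and WT day 4 replicate 1. It was 59 and 11 without KO day 2 replicates 1 and 2, and 1658 and 309 without KO day 4 replicates 1 and 2. Of the 395, 250 were called in both of the last cases.

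**Figure D5:**
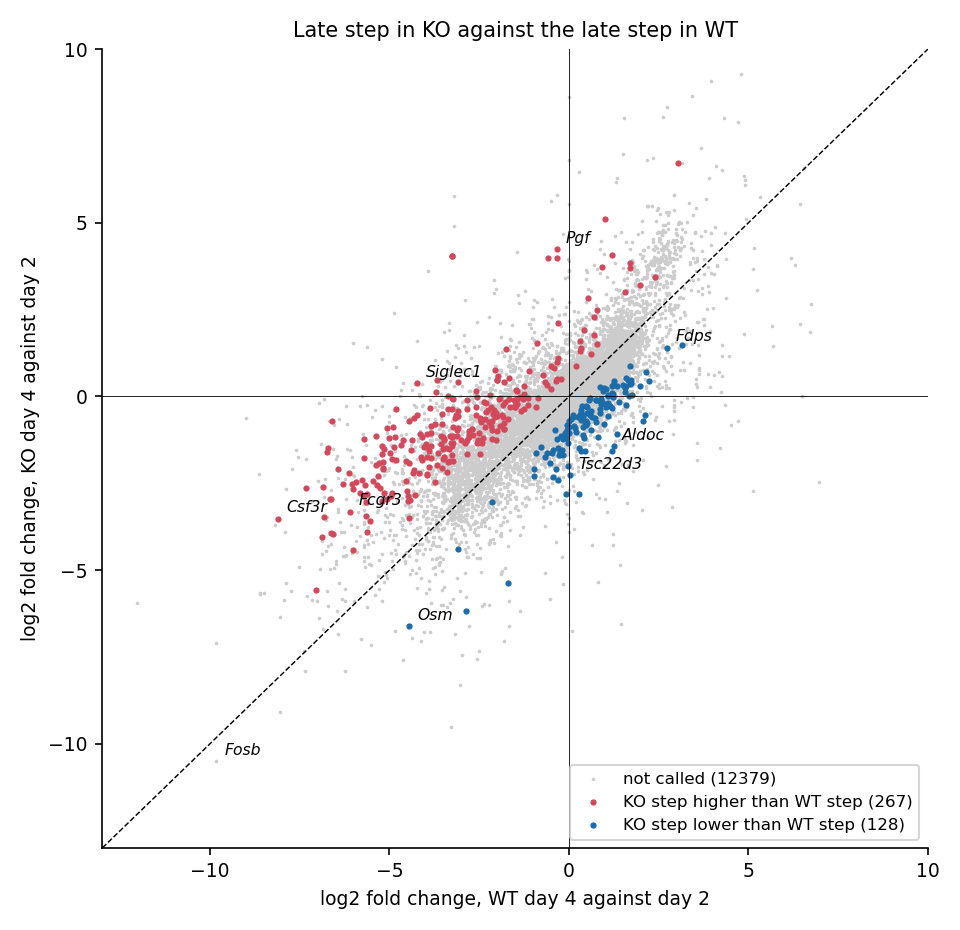
Log2 fold change from day 2 to day 4 in WT (x axis) and in KO (y axis) of each tested gene, with the 267 genes whose KO step was higher in red, the 128 whose KO step was lower in blue, the others in grey and equality as a dashed line. Most red points lie in the lower left, where both genotypes fell and KO fell less, and blue points lie mainly where WT rose or lay near 0.

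Many receptors of macrophages and granulocytes fell less in KO than in WT. The difference was called, with a higher KO step, for 14 of 29 macrophage genes, 12 of 19 complement and Fc receptor genes and 7 of 26 inflammatory genes, with 1 inflammatory gene lower, against 2.09% of all tested genes. Csf3r, the receptor for G-CSF, held 262 and 249 CPM and then 15.3 and 29.3 CPM in KO, and 155 and 118 CPM and then 0.720 and 0.256 CPM in WT (difference 4.58 ± 0.56, adjusted p = 0.0131). C5ar1, the receptor for complement fragment C5a, held 438 and 614 CPM and then 132 and 120.4 CPM in KO, and 312 and 285 CPM and then 8.23 and 8.05 CPM in WT (3.13 ± 0.34, adjusted p = 0.0109). Both genes fell in each genotype and ended higher in both KO libraries than in both WT libraries. Clec4n, the fungal receptor dectin 2, differed by 3.66 ± 0.41, Nlrp3, the inflammasome sensor, by 2.82 ± 0.32, the chemokine gene Ccl2 by 2.86 ± 0.29, Fcgr3 by 2.78 ± 0.34, and Gpr34, a lysophosphatidylserine receptor, by 4.68 ± 0.89. The 11 listed neutrophil markers, 4 of them at 0 in all 4 KO libraries and most of the sum being Csf3r itself, summed to 263 and 251 CPM and then 16.5 and 30.8 CPM in KO, and to 155 and 118 CPM and then 1.34 and 0.666 CPM in WT, and their part in these differences was not tested. Igf1, a growth factor that macrophages supply to bone, held 470.3 and 413 CPM and then 92.7 and 141 CPM in KO, and 333 and 338 CPM and then 9.26 and 7.74 CPM in WT (3.38 ± 0.29, adjusted p = 0.00557).

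Other genes with a higher KO step rose in KO, or fell in WT and were not called in KO. Pgf, placental growth factor, held 6.44 and 3.89 CPM and then 81.3 and 116 CPM in KO and 9.10 and 10.5 CPM and then 9.37 and 6.36 CPM in WT. It rose in KO (4.25 ± 0.42, adjusted p = 0.000188) in both libraries, was not called in WT (adjusted p = 0.496), and the difference was called (4.57 ± 0.56, adjusted p = 0.0125). Abcg3, an ABC transporter gene, went from 1.56 and 0.546 CPM to 8.65 and 25.6 CPM in KO, more in replicate 2 (difference 4.59 ± 0.90, adjusted p = 0.0378). Siglec1, the sialic acid receptor of resident macrophages, held 1060.3 and 1518 CPM and then 668 and 2698 CPM in KO, which overlap, while in WT it fell from 284 and 498 CPM to 25.2 and 16.8 CPM (difference 4.60 ± 0.94, adjusted p = 0.0452). Plxnc1, a semaphorin receptor, held 190.3 and 199 CPM and then 36.9 and 129 CPM in KO, lowest in replicate 1 and not called (adjusted p = 0.0721), against 241 and 193 CPM and then 4.73 and 3.49 CPM in WT (difference 4.49 ± 0.72, adjusted p = 0.0252). Nptx1, a neuronal pentraxin, and Spint2, an inhibitor of serine proteases, were among the largest KO rises, from 1.56 and 0.546 CPM to 132 and 94.2 CPM (6.72 ± 0.60) and from 2.06 and 1.36 CPM to 36.9 and 81.3 CPM (5.10 ± 0.65). They exceeded the WT change by 3.67 ± 0.74 and 4.09 ± 0.81 (adjusted p = 0.0415 and 0.0404). These differences were called in only 8 and 7 of 17 alternatives. Akap6, an anchor of protein kinase A, and Alox15, a lipoxygenase, were also among the largest rises, from 2.06 and 1.501 CPM to 95.4 and 64.4 CPM (adjusted p = 0.000845) and from 0.125 and 0.478 CPM to 4.56 and 19.8 CPM (adjusted p = 0.0114). Scin, an actin-severing protein, rose from 0.5002 and 0.273 CPM to 77.0 and 7.77 CPM (adjusted p = 0.00546), mostly in replicate 1. The call of Alox15 was lost without day 2 replicate 1, in a range of 0.000175 to 0.0747 over 13 alternatives. The difference from the WT step was not called for Akap6, Alox15 or Scin (adjusted p = 0.0992, 0.738 and 0.277).

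Genes whose KO step was lower included 7 of sterol synthesis and single genes of other kinds. Of 21 cholesterol synthesis genes 9 rose and 2 fell in KO (median 0.43), while 18 rose in WT (median 1.47), and the difference was called, with a lower KO step, for 7, against 1.0% of all tested genes. The KO rises numbered 5 without day 2 replicate 1, 3 without day 2 replicate 2, 3 without day 4 replicate 1 and 8 without day 4 replicate 2. Fdps, which makes farnesyl diphosphate, held 15.4 and 12.6 CPM and then 41.1 and 33.6 CPM in KO and 15.6 and 15.4 CPM and then 107 and 100.2 CPM in WT (difference -1.33 ± 0.27, adjusted p = 0.0403). Idi1, which acts just before it, differed by -1.69 ± 0.36 (adjusted p = 0.0445). Both rose in each genotype. Tsc22d3, the glucocorticoid-induced leucine zipper GILZ, held 94.4 and 114 CPM and then 21.7 and 21.5 CPM in KO, and 72.9 and 73.5 CPM and then 76.7 and 73.1 CPM in WT, where it was not called (adjusted p = 0.855) (difference -2.30 ± 0.20, adjusted p = 0.00557). Osm, the cytokine oncostatin M, fell in KO from 243 and 312 CPM to 3.33 and 2.33 CPM and less in WT (difference -2.15 ± 0.31, adjusted p = 0.017). Aldoc, a brain-type aldolase, and Mt2, a metallothionein, fell in KO and rose in WT, with differences of -2.66 ± 0.32 and -2.78 ± 0.45.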

How the data were processed

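RNA-seq was analysed in 12 libraries, 2 replicates each of KO and WT at days 0, 2 and 4. The labels name Trizol total RNA and the NEBNext Ultra RNA kit. The authors deposited expected counts and TPM per gene, and the submitters' processing notes name RSEM 1.3.1, STAR 2.7.3a, DESeq2 and Trim Galore 0.6.1. RSEM shares reads among similar genes in proportion to estimated abundance, so counts of paralogs are uncertain. The notes name the builds mm9 and mm10 without a role. The gene models and strand setting are not given in the sources used here.

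The deposited expected counts were rounded to whole numbers. Genes passing edgeR's filter (minimum count 10), 12774 of 23170, were fitted in R 4.3.3 with edgeR 4.0.16 (TMM, robust quasi-likelihood), with 1 mean for each of the 6 groups over all 12 libraries. The contrasts were KO day 4 minus day 2, the same in WT, and their difference. P-values were adjusted by Benjamini-Hochberg over all tested genes. SE is the absolute log2 fold change over the square root of F, and it can fall below counting error where a group has few counts. Library totals were 16282164 to 18608353 counts. Alternatives used DESeq2 1.42.0, limma 3.58.1 on counts or on the deposited TPM, other filters, libraries left out and other fits. The fit was tested on simulated data with 50 genes changed at each fold and the spread of a gene alike in all groups. For the KO step 20% of genes changed 2-fold, 78% of those changed 4-fold and 84% of those changed 8-fold were called. There were 4 false calls among 12574 unchanged genes. For the difference between the steps 4% were called at 2-fold and 68% at 4-fold and at 8-fold, with 3 false calls. In the real data the KO step called 42.7% of genes and the KO day 4 pair was the most apart, so these rates do not carry over to it.

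Named genes were the largest changes of the KO step with a mean of at least 5 CPM and the days not overlapping, the largest differences between the steps and between the day 4 libraries, and from each gene list the 4 members with the smallest adjusted p and the 2 with the largest day 4 difference, besides 9 preset genes. The members and the 40 gene lists were chosen with earlier results of these data known. Promoter sequences and gene matches are from RefSeq (GRCm38.p6).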

Additional observations from a re-analysis of the deposited data

Results flagged for a closer look

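The step from day 2 to day 4 differed between KO and WT, by a test of the difference itself, for 395 genes. How well these calls held varied by gene. Of 17 alternatives, 16 kept the call of Igf1, Tsc22d3 and Ccl2. Only 8 kept that of Nptx1 and Abcg3, 7 that of Siglec1, Gpr34 and Spint2, 6 that of Fdps and 5 that of Idi1. Among the named genes the KO step was higher by 4.68 for Gpr34, 4.60 for Siglec1, 4.59 for Abcg3, 4.58 for Csf3r, 4.57 for Pgf and 4.49 for Plxnc1, in log2. It was higher by 4.09 for Spint2, 3.67 for Nptx1, 3.66 for Clec4n, 3.38 for Igf1, 3.13 for C5ar1, 2.995 for Lipa, 2.86 for Ccl2, 2.82 for Nlrp3 and 2.78 for Fcgr3. Smaller differences of the same sign were those of the lysosomal protease gene Ctsd (1.75), the phosphatase gene Dusp1 (1.58), the cholesterol exporter gene Abca1 (1.45), the lysosomal sulfatase gene Galns (1.43), Mylip, which marks the LDL receptor for degradation (1.19), and Id2 (0.95).

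The KO step was lower for Pde8b, a cyclic AMP phosphodiesterase gene (-2.78), Mt2 (-2.78), Cables1, which binds cyclin-dependent kinases (-2.71), Aldoc (-2.66), Tsc22d3 (-2.30), Osm (-2.15), Idi1 (-1.69), Cdkn1b (-1.60) and Fdps (-1.33). Cables1 held 28.1 and 26.7 CPM and then 4.61 and 3.22 CPM in KO, and 7.38 and 9.63 CPM and then 9.01 and 6.97 CPM in WT. Pde8b held 11.4 and 6.28 CPM and then 5.73 and 5.10 CPM in KO, and 7.21 and 5.42 CPM and then 24.6 and 28.8 CPM in WT.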

How the results depend on the processing

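The KO step kept its direction in its calls over most alternatives: over the named genes 1235 values stayed on their side of the threshold, 73 lost the call, 28 gained it and 6 changed sign with a call on either side. For the difference between the steps these numbers were 1405, 185, 40 and 0. The values that stayed on their side include 10 of the KO step and 87 of the difference that changed sign without a call, among them Siglec1 (-0.95) and Vcam1 (-1.09) without KO day 4 replicate 2 and Lipa (0.04) without KO day 4 replicate 1. The 6 that changed sign with a call all had a positive main value. Without KO day 4 replicate 1, Itgb3 (-1.81) and Xpr1 (-0.61) turned negative. Without KO day 4 replicate 2, Apol7c (-4.45), Il15 (-0.89), Icam1 (-0.57) and Slc20a1 (-0.50) did. The fit without the other day 4 library kept the main sign, with 1.96 for Itgb3, 0.70 for Xpr1, 1.34 for Apol7c, 0.74 for Il15, 0.99 for Icam1 and 0.70 for Slc20a1. The KO step called 2403 genes with its libraries fitted alone and 2824 at 2-fold or more, and 3866 to 5486 with 1 library left out. The WT step called 3689 genes at 2-fold or more, and 4598 to 4811 with 1 left out. The difference called 1106 genes with DESeq2, 223 with limma-voom, 38 with its libraries alone, and 0 to 1658 with 1 left out. The cause was not tested. The WT step called 8013 genes with its libraries fitted alone, more than the 6619 of the main fit. With the KO libraries of the step fitted alone, most gene lists had fewer calls, as the KO step had. Rises numbered 6 in place of 16 for osteoclast genes, 4 in place of 12 for interferon genes and 12 in place of 19 for ribosome biogenesis. Lysosomal falls numbered 6 in place of 18, and DNA replication kept 33 rises. The count of genes over 2-fold apart at KO day 4 was 935 with 2 CPM added, 411 at 4-fold and 792 at a mean of at least 5 CPM. On the WT line replicate 1 lay at 0.686 to 0.721 and replicate 2 at 0.616 to 0.659 with 1 library left out, and replicate 2 at 0.552 on genes called in WT.

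The 2 replicate numbers may or may not pair the libraries. The deviations of same-numbered KO libraries of days 2 and 4 correlated at 0.46 across genes. Those of WT day 0 correlated at -0.54 with KO day 2 and at -0.41 with KO day 4. Correlations of this size, but negative, thus also occurred between genotypes. Within a genotype the other values were positive too. They were 0.60 for KO days 0 and 2, 0.43 for KO days 0 and 4, and 0.11 to 0.30 in WT. Whether the numbers pair the libraries was not tested, and 0.46 alone cannot show it. With the replicate number as a block the KO step called 6078 genes, the WT step 7211 and the difference 614. With the block, interferon rises numbered 20, rises of MHC class I genes 6, falls of stromal markers 7 of 14 and falls of bone coupling genes 8.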

Other observations

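Of 27 lysosomal genes 18 fell and 2 rose (median -0.69, 12 to 19 falls with 1 library left out), against 20.6% of all tested genes falling. Ctsh, a cysteine protease, fell from 532 and 502 CPM to 25.1 and 16.6 CPM (-4.63 ± 0.21, adjusted p = 6.71e-06). Galns, a sulfatase that degrades keratan sulfate, rose from 23.8 and 24.3 CPM to 56.0 and 48.4 CPM (1.12 ± 0.14, adjusted p = 0.000501). Ctsd, an aspartic protease, was at 10319 and 10259.7 CPM and then 4839.8 and 7894 CPM in KO, and at 9181 and 7510.1 CPM and then 1608 and 1472 CPM in WT. Its KO call (adjusted p = 0.036) was lost without day 2 replicate 1, day 2 replicate 2 or day 4 replicate 1, in a range of 0.00175 to 0.22 over 14 alternatives. Lipa, the acid lipase of the lysosome, held 1153 and 1256 CPM and then 632 and 1236 CPM in KO and was not called there (adjusted p = 0.372), against 1092 and 1132 CPM and then 108 and 108 CPM in WT. Of 15 genes of lipoprotein handling and LXR targets 7 fell and 3 rose (median -0.57). Abca1 held 1727 and 1963 CPM and then 439.6 and 568 CPM (-1.87 ± 0.17), and Mylip 92.2 and 86.9 CPM and then 26.9 and 30.3 CPM (-1.65 ± 0.14).

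Of 14 factors by which osteoclast-lineage cells signal to bone-forming cells and vessels 5 fell and 1 rose (median -2.02). Vegfa, the vascular growth factor, went from 1198 and 1021 CPM to 60.2 and 26.4 CPM (-4.68 ± 0.44, adjusted p = 0.00017), lowest in replicate 2. Of 23 BAF subunit genes 8 rose and 3 fell (5 to 7 rises with 1 library left out). Actl6a, an actin-related subunit, rose from 26.8 and 25.5 CPM to 73.4 and 53.8 CPM (1.28 ± 0.16). Arid1b, the paralog of Arid1a, fell from 119 and 127 CPM to 80.2 and 78.0 CPM (-0.64 ± 0.09, adjusted p = 0.00088). Its call was kept in 12 of 14 alternatives. Over all tested genes 22.1% rose and 20.6% fell, which is the background for the counts of this paragraph. Of 18 proton pump subunit genes 8 rose and 1 fell (4 to 8 rises with 1 library left out). Of 18 fusion genes 6 rose and 3 fell, with 2 rises without day 2 replicate 2 and 9 at most. Of 30 genes of RANK signalling 8 rose and 10 fell, with 3 to 6 rises and 5 to 12 falls with 1 library left out.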
